A study of Homo sapiens with 2 samples.

Results

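The BCL2 family decides whether a cell under stress permeabilises its mitochondria, and its RNA was compared between A549/DDP, a cisplatin-resistant human lung adenocarcinoma line, and A549, the parental line from which it was derived. The account covers 10 genes taken by name. They are the survival members BCL2, BCL2L1, BCL2L2, MCL1 and BCL2A1, and the death members BAX, BAK1, BOK, BIK and BCL2L11. Together they had 30 probe sets that read 1 gene only, of 41091 such probe sets and 19775 measured genes. A probe set is a group of short probes designed against 1 stretch of transcript. Each line was measured on 1 Affymetrix HG-U133 Plus 2.0 array after detachment with trypsin, so no value has a replicate and no p-value could be given.

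As background, the survival proteins hold the effectors in check at the mitochondrial outer membrane. The effectors BAX and BAK1 form pores through which cytochrome c leaves, and this release starts the caspase cascade. BH3-only proteins such as BCL2L11, also called BIM, and BIK relay stress by occupying the survival proteins or by switching on the effectors. Cisplatin, which crosslinks DNA, kills cells largely through this mitochondrial route.

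The signals are log2 values on a scale set by the authors. The median of each array, 6.18 for A549/DDP and 6.22 for A549, served as a floor, under which a probe set was taken as too dim to give a fold. A gene with 1 value under the floor has only a lower bound on its fold, and a gene is called expressed here when either array had it at or over the floor. The transcription factor gene ZNF300, which the study pursued, had a signal of 5.76 on the array labelled A549/DDP and 7.59 on the A549 array, a fold of at least 2.65 downward. The study describes the opposite direction for this gene, and a note attached to the sample titled A549/DDP mentions overexpression of ZNF300, so every direction here is that of the array labels. Among epithelial markers, KRT8 (11.99 in A549/DDP, 10.83 in A549), KRT18 (14.50 and 13.12 in the same order) and KRT7 (12.64 and 12.71) were bright. EPCAM (4.68 and 7.05) and CDH1 (2.52 and 7.30) were under the floor on the array labelled A549/DDP only, and KRT19 was under it on both. Of 6 epithelial markers, 5 were expressed, with summed signals of 33673 in A549/DDP and 17778 in A549 on the linear scale. Of 5 blood cell markers measured, 2 were expressed, with sums of 254 and 256, with PTPRC, CD14 and SPI1 below the floor throughout. Of 4 endothelial markers 1 was expressed (sums 294 and 226), with PECAM1, CDH5 and VWF under the floor on both. Of 6 fibroblast markers 3 were expressed (sums 1069 and 686), with COL3A1, LUM and PDGFRB under the floor on both. The part of these markers in the results below was not tested.

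BCL2A1 was the survival member that stood out. It encodes a short-lived survival protein, also called BFL1 or A1, best known from blood cells and as a target of NF-kB. Its only probe set, 205681_at, had a log2 signal of 11.33 in A549/DDP and 8.56 in A549, both over the floor. On the linear scale these were signals of 2573 and 378. The difference was 2.77 on the log2 scale, or 6.81-fold higher in A549/DDP. Of the 13159 expressed genes, 86 (0.654%) differed by at least as much in either direction. There was no second probe set for this gene against which the value could be set.

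The promoter window of BCL2A1, the member with the largest difference, is shown beside that of BOK, the member with the next largest increase, because the study set expression beside promoter methylation, and the number of CG dinucleotides, where methylation occurs, differs between these windows. Capitals mark each CG. Both sequences are from RefSeq (GRCh38.p14) and run from 250 bases before to 50 bases after a transcript start, BCL2A1 at chr15:79971147-79971446 on the minus strand and BOK at chr2:241558495-241558794 on the plus strand. The BCL2A1 start is the outer edge of the gene in RefSeq, whereas the BOK start lies 7352 bases inside the annotated gene, so the BOK window is that of an internal start and which start these cells use was not examined.
BCL2A1: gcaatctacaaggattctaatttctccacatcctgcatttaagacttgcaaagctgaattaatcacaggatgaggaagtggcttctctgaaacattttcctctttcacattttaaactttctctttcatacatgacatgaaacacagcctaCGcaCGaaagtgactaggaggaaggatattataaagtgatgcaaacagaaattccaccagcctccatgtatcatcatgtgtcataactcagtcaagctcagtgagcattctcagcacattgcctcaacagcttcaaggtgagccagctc
BOK: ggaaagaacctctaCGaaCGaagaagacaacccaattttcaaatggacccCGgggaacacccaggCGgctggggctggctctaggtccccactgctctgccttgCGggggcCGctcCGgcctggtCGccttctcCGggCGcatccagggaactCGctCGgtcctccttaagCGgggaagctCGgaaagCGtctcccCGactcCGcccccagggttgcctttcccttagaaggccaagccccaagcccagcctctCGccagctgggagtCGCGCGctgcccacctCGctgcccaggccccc

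The BCL2A1 window holds 2 CG dinucleotides and 41.0% G and C, whereas the BOK window, at its internal start, holds 22 and 66.7%. The median over all 35116 promoters in that table was 14 CG and 58.7% G and C. The other members with a window in the table held 7 CG (BAK1), 31 (BCL2), 38 (BAX) and 39 (BCL2L11), and the 2 windows of BCL2L1 held 20 and 16. Of these, the BCL2 start and the second BCL2L1 start lie 321 and 1095 bases inside the gene. In all, 7 of the 10 members had a window, and MCL1, BCL2L2 and BIK were not among them. These counts describe sequence only, since methylation was not analysed here.

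For 4 motifs, chosen with the sequences and results in view, the windows were read on both strands. TATAAA occurred in the BCL2A1 window and in 1 of the BCL2L1 windows, against 11.5% of all promoters. The outline of an NF-kB site (GGG, then 5 bases of any kind, then CC) had no match in the BCL2A1, BAX or BCL2L1 windows and at least 1 in those of BOK, BCL2L11, BAK1 and BCL2, against 58.7% of all promoters. CACGTG, the E-box, occurred 4 times in the BAX window and in no other member window, against 7.26% of all promoters. GTAAACA, a FOXO site, occurred in the BCL2L11 window alone among those of the members, against 3.42%. Matches of different motifs did not overlap, and a match is not a site of binding.

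The other survival members differed little, and their brightest probe sets were slightly lower in A549/DDP. MCL1, a survival protein with a very short half-life, was read by 6 probe sets. The brightest, 200797_s_at, had a log2 signal of 13.83 in A549/DDP and 14.05 in A549, which is 1.16-fold lower. Of the 6 probe sets, 5 were lower and 1 was higher, with differences from -0.49 to 0.29 and an SD between probe sets of 0.27. The difference of the brightest was thus no larger than the scatter of its own probe sets. BCL2L1, whose main product is BCL-XL, was read by 4 probe sets. The brightest, 212312_at, gave 9.84 in A549/DDP and 10.10 in A549, or 1.20-fold lower. The differences of its 4 probe sets ran from -0.40 to 0.14 (SD 0.23), 3 of them below 0.

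BCL2L2 encodes BCL-W. Its bright probe set 209311_at had 10.15 in A549/DDP and 10.55 in A549, or 1.32-fold lower. Its dim probe set 1555140_a_at went the other way, with 6.53 in A549/DDP and 6.07, under the floor, in A549. The 2 probe sets differed by more between themselves (SD 0.61) than either did between the arrays, so BCL2L2 had no settled direction. One further probe set of several genes, BCL2L2 among them, was left out.

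BCL2, the founding survival gene, was dim. The probe set 207004_at had 6.78 in A549/DDP and 7.43 in A549, or 1.56-fold lower. The remaining 3 probe sets were under the floor on both arrays. They had 6.13 in A549/DDP and 4.95 in A549 (203685_at), 6.14 and 4.54 (207005_s_at), and 4.55 and 1.38 (203684_s_at). All 3 were thus higher on the array labelled A549/DDP, opposite to 207004_at, at signals too low for a fold. No direction for BCL2 can be read from these values.

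**Figure D1:**
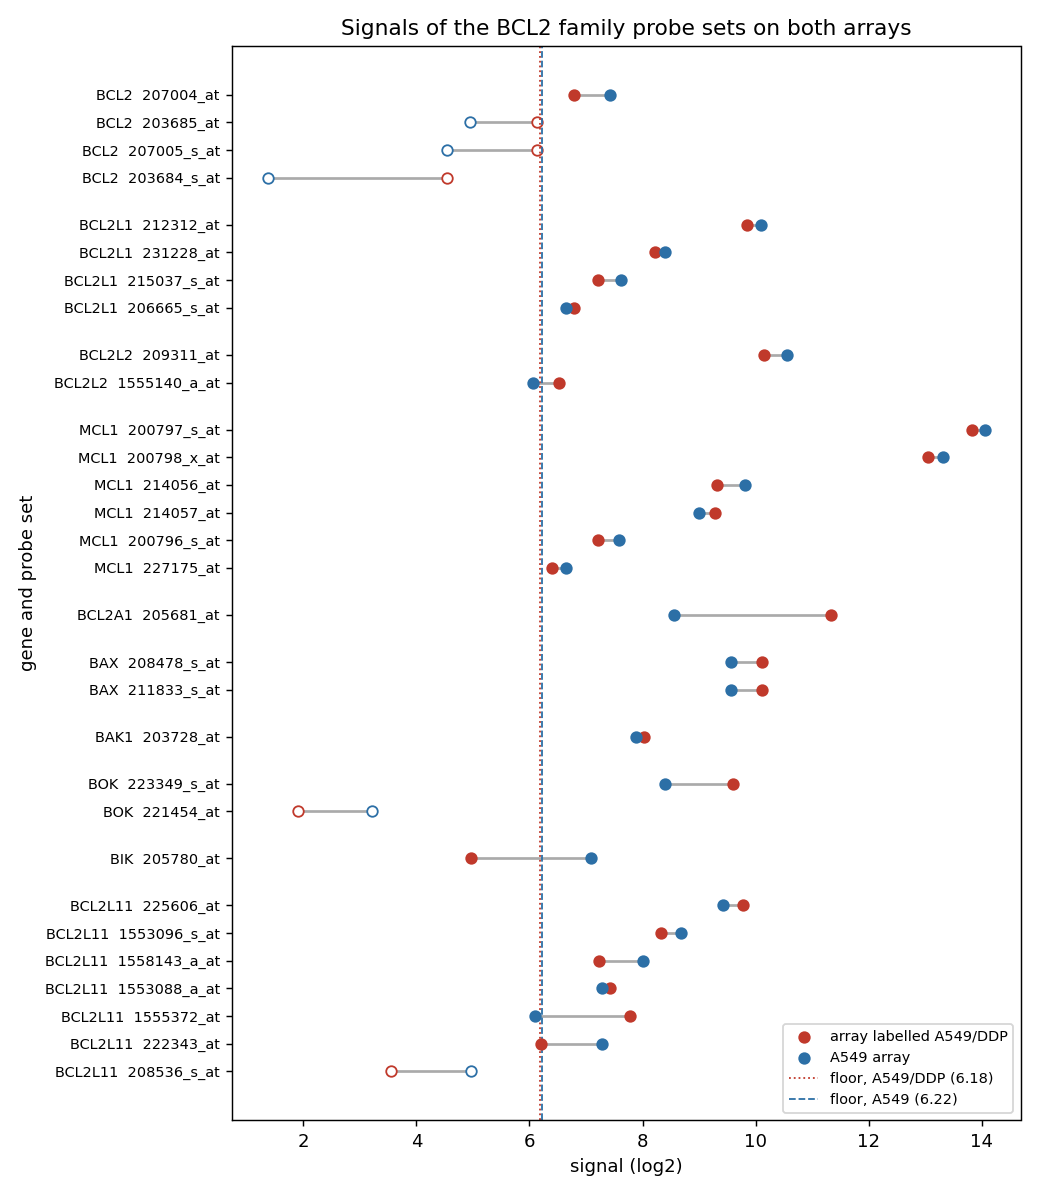
Log2 signal of each of the 30 probe sets of the 10 members, 1 row per probe set, on the array labelled A549/DDP (red) and on the A549 array (blue); open circles are probe sets under the floor on both arrays, and the vertical lines are the floors (6.18 and 6.22). The widest gap over the floor is that of BCL2A1, at 11.33 in A549/DDP and 8.56 in A549. Within each probe set of MCL1 and BCL2L1 the red and blue points lie close together, and the probe sets of BCL2L11 point in both directions.

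Among the effectors, BOK was the most different. BOK is a BAX relative whose protein is kept low by degradation at the endoplasmic reticulum. Its probe set 223349_s_at had a log2 signal of 9.60 in A549/DDP and 8.40 in A549, a difference of 1.20 or 2.30-fold higher. Its other probe set, 221454_at, had 1.91 in A549/DDP and 3.21 in A549, below both floors. BOK therefore rests on 1 probe set, and 9.15% of the expressed genes differed by at least as much.

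BAX had 10.11 in A549/DDP and 9.57 in A549 on each of its 2 probe sets, 208478_s_at and 211833_s_at, or 1.45-fold higher. The linear signals were 1103 and 1105 in A549/DDP and 762 and 760 in A549. The near identity of the 2 probe sets means that they cannot be counted as separate measurements, whether or not they share probes, which was not examined. BAK1 had 8.03 in A549/DDP and 7.88 in A549 on its single probe set 203728_at, 1.11-fold higher. This is among the smaller differences, since 78.7% of the expressed genes differed by at least as much.

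The BH3-only members gave no common direction. BIK, a BH3-only protein of the endoplasmic reticulum, had 4.96 in A549/DDP and 7.09 in A549 on its single probe set 205780_at. The value in A549/DDP lay under the floor, so the fold of BIK was a bound, at least 1.87-fold lower in A549/DDP. As deposited, the difference was -2.12, or 4.35-fold lower, which passes 3-fold, whereas the bound does not. The BIK probe set falls in the dimmest of 4 classes of mean signal, where differences as deposited had an SD of 1.83 over 6270 probe sets.

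BCL2L11 was read by 7 probe sets, 6 of them over the floor. The brightest, 225606_at, had 9.77 in A549/DDP and 9.43 in A549, or 1.27-fold higher. Next in brightness, 1553096_s_at had 8.32 in A549/DDP and 8.68 in A549, and 1558143_a_at had 7.23 and 8.0, both lower in A549/DDP. The probe set 1553088_a_at had 7.43 in A549/DDP and 7.29 in A549. The probe set 1555372_at was the farthest upward, with 7.77 in A549/DDP and 6.10 in A549, a fold of at least 2.92 because the A549 value was under the floor. The probe set 222343_at was the farthest downward, with 6.2 in A549/DDP and 7.28 in A549, 2.11-fold lower. Of the 6 probe sets, 3 were higher and 3 lower, with a median difference of -0.11 and an SD of 0.98 as deposited.

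Such disagreement was frequent, though in most genes less wide. Of 552 genes with at least 5 probe sets over the floor, 398 (72.1%) had differences of both signs. The median SD over all 552 was 0.50. An SD at or above that of BCL2L11 was found in 96 of them (17.4%), BCL2L11 included. BCL2L11 is known to be spliced into several isoforms, and which of them each probe set reads was not examined. Its level as 1 gene had no settled direction on these arrays.

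Counted over the family, 1 of the 10 members was at least 3-fold higher on the array labelled A549/DDP (BCL2A1) and 0 were at least 3-fold lower. Over all expressed genes the shares were 2.14% higher and 2.18% lower. At 2-fold, 2 members were higher (BCL2A1 and BOK) and 0 lower, beside 6.13% and 7.40% of all expressed genes. By probe set, 1 of the 25 over the floor was at least 3-fold higher and 0 were lower, where 1.82% and 2.09% of all 25078 probe sets over the floor were. At 2-fold, 3 of the 25 were higher and 1 lower, beside 5.97% and 7.26% of all. With 10 members these counts say little beyond the genes they name.

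The 5 survival members had a median log2 difference of -0.26, with 1 higher and 4 lower on the array labelled A549/DDP, and the 5 death members had a median of 0.34, with 4 higher and 1 lower. The median of all expressed genes was 0.00, with 50.4% higher and 49.2% lower. These counts include BCL2, BCL2L2 and BCL2L11, whose direction was not settled. The survival median is the value of BCL2L1 on 212312_at alone, and the death median is that of BCL2L11 on 225606_at alone. Over the 6 BCL2L11 probe sets over the floor the median difference was -0.11, so the death median has no settled direction either. The survival median became 0.14, and the death median 0.15, when each gene took its dimmest probe set over the floor. With the median over all probe sets, which left out BCL2 and BOK, they were -0.03 and 0.14. Without BCL2A1 the survival members were all between -0.65 and -0.22 by their brightest probe sets. The median SD between probe sets of 1 gene was 0.38 over 6570 genes, and 6 of the 10 members differed by more than that. These were BCL2, BCL2A1, BOK and BIK, each with 1 probe set over the floor, BAX with its near-identical pair, and BCL2L2, whose probe sets disagreed.

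**Figure D2:**
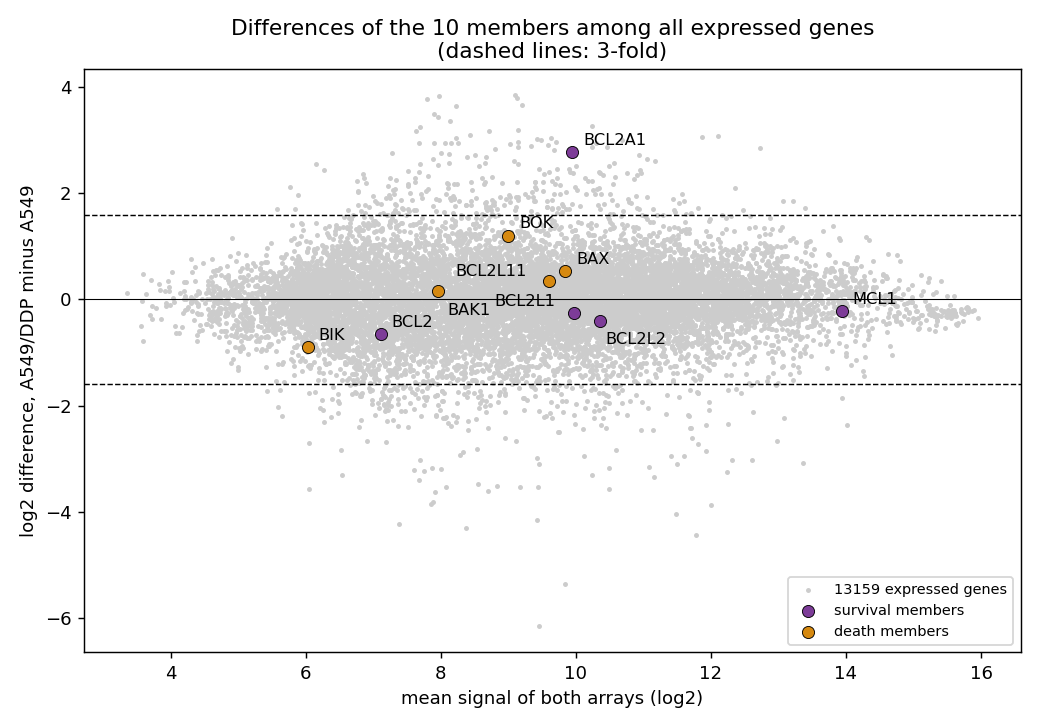
Log2 difference between the array labelled A549/DDP and the A549 array (vertical axis) against the mean log2 signal of both (horizontal axis) for 13159 expressed genes (grey), with survival members in purple and death members in orange; dashed lines mark 3-fold, and genes with 1 value under the floor, such as BIK, are drawn at their bound. BCL2A1 at 2.77 is the only member outside the dashed lines, and BOK at 1.20 is the next above 0.

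The remaining BCL2 relatives were read in the same way. Of 13 listed, 12 were measured (BBC3 was not analysed here) and 10 were expressed, with 4 higher, 6 lower and a median of -0.07. By their brightest probe sets 0 were past 2-fold, beside 6.13% of all expressed genes higher and 7.40% lower. BAD, a BH3-only protein that binds BCL-XL, had 9.19 in A549/DDP and 8.37 in A549, 1.76-fold higher, and its 3 probe sets were all higher (0.20 to 0.82). BID, the link from death receptors to mitochondria, had 11.39 in A549/DDP and 10.83 in A549, 1.48-fold higher, with all 3 probe sets higher (0.52 to 0.80). PMAIP1, also called NOXA, which neutralises MCL1, had 10.73 in A549/DDP and 11.39 in A549, 1.58-fold lower, with both probe sets lower (-1.26 and -0.66). BCL2L14 and BCL2L15 were too dim on both arrays.

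Of 13 genes of the mitochondrial outer membrane and of the proteins released through it, all were expressed, 7 higher and 6 lower. Their median was 0.12 and 0 were past 2-fold, beside 6.13% of all expressed genes higher and 7.40% lower. CYCS, cytochrome c itself, had 14.45 in A549/DDP and 13.85 in A549, 1.51-fold higher on its brightest probe set, while its other 2 were lower, with -0.13 the farther. MTCH2, the mitochondrial receptor of cleaved BID, had 12.33 in A549/DDP and 11.75 in A549, 1.5-fold higher. Its dimmer probe set 222403_at had 10.30 in A549/DDP and 10.23 in A549, 1.05-fold higher. The channel gene VDAC1 had 14.33 in A549/DDP and 13.83 in A549, 1.41-fold higher, whereas VDAC2, which is known to hold BAK1 at the membrane, had 14.27 in A549/DDP and 14.63 in A549, 1.29-fold lower.

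Of 7 genes that act on MCL1 protein turnover, all were expressed, 1 higher and 6 lower by their brightest probe sets, with a median of -0.24. Probe sets of 2 of them, BTRC and USP13, disagreed in sign. BTRC was counted as lower at -0.04, but 2 of its 3 probe sets over the floor were higher. These were 216091_s_at by 0.59 and 204901_at by 1.08, or 2.11-fold. USP9X, a deubiquitinase that stabilises MCL1, was the only one past 2-fold by its brightest probe set, beside 6.13% of all expressed genes higher and 7.40% lower. It had 11.57 in A549/DDP and 12.63 in A549, 2.08-fold lower, and its 3 probe sets over the floor were all lower (-1.05 to -0.82). The ubiquitin ligases HUWE1 (15.58 in A549/DDP, 15.84 in A549) and FBXW7 (8.94 in A549/DDP, 9.35 in A549) were 1.20-fold and 1.33-fold lower. In each, all 4 probe sets over the floor were lower. The HUWE1 values are those of 207783_x_at, and probe sets marked _x_at or _s_at can bind several transcripts. They were close to those of TPT1, in the same list, on 212284_x_at (15.59 in A549/DDP, 15.83 in A549). The next brightest HUWE1 probe set, 208598_s_at, was far dimmer on both arrays and 1.63-fold lower. Whether 207783_x_at reads HUWE1 alone was not tested. USP9X and HUWE1 lie on chromosome X, where the median over 417 expressed genes was -0.63 and 81.5% were lower in A549/DDP. Whether USP9X differs apart from its chromosome was not tested.

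Genes of the NF-kB pathway, of which BCL2A1 is a known target, lay in both directions, most of them lower in A549/DDP. Of 11 listed, 10 were measured and expressed (BIRC3 was not analysed here), 3 higher and 7 lower, with a median of -0.54. That median was 0.08 when probe sets marked _x_at or _s_at, which can bind several transcripts, were left out. This also changed the genes compared. RELA and TNFAIP3, lower on all their probe sets, dropped out, and NFKBIA, NFKB2 and CFLAR were read by dimmer probe sets. REL, the NF-kB subunit c-Rel, had 9.36 in A549/DDP and 10.83 in A549, 2.77-fold lower, with all 5 probe sets lower (-1.71 to -1.20 as deposited). One of them, 239486_at, was past 3-fold, with 6.37 in A549/DDP and 8.07 in A549. CFLAR, which encodes the caspase-8 inhibitor c-FLIP and is itself an NF-kB target, had 11.36 in A549/DDP and 12.16 in A549, 1.74-fold lower, and its 12 probe sets over the floor were all lower (-1.51 to -0.12 as deposited). RELB, a subunit of the non-canonical pathway, had 8.70 in A549/DDP and 9.63 in A549, 1.91-fold lower. NFKB1, the gene of p50, went the other way, with 10.59 in A549/DDP and 9.87 in A549, 1.65-fold higher. Probe sets of 3 genes in the list disagreed in sign. NFKBIA, the feedback inhibitor of NF-kB, had 12.37 in A549/DDP and 12.89 in A549 on its bright probe set 201502_s_at. Its dim probe set 231699_at had 6.41 in A549/DDP and 3.56 in A549, a difference of 2.86 as deposited and of at least 0.19 with the A549 value raised to the floor. NFKB2, the gene of p52, had 8.74 in A549/DDP and 9.30 in A549 on 207535_s_at, but 7.17 in A549/DDP and 6.56 in A549 on 209636_at. The probe sets of TRAF1, an adaptor of TNF receptors, differed by 0.07 and -0.49. By their brightest probe sets, 0 of the 10 genes passed 3-fold, beside 2.14% of all expressed genes higher and 2.18% lower. At 2-fold, 0 were higher and 1 was lower (REL), beside 6.13% and 7.40% of all expressed genes.

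For BCL2L11, the FOXO transcription factors that can induce it and the dynein light chains that tether its protein were read. Of 5 genes, 4 were expressed, 2 higher and 2 lower, with a median of -0.12 that was 0.11 with the floor at the 75th percentile. DYNLL1 had 14.44 in A549/DDP and 14.11 in A549, 1.25-fold higher, and its relative DYNLL2 had 10.33 in A549/DDP and 10.70 in A549, 1.29-fold lower. FOXO1 had 8.13 in A549/DDP and 8.47 in A549, 1.27-fold lower. FOXO4 was too dim on both arrays.

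**Figure D3:**
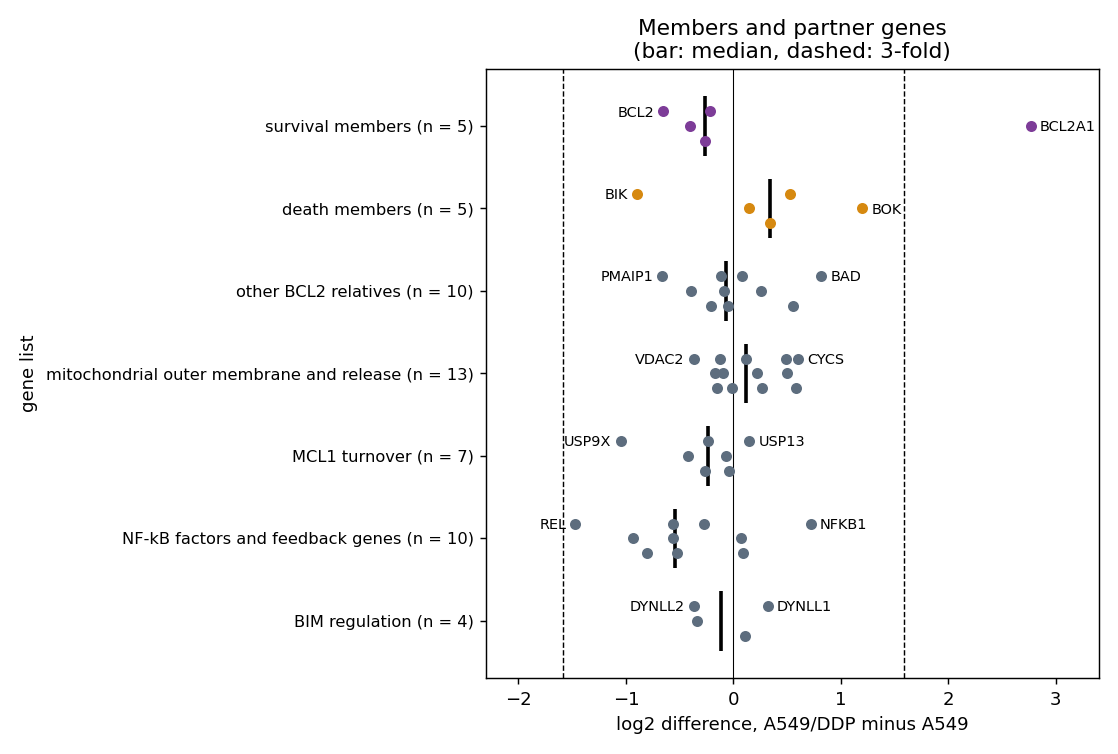
Log2 difference (A549/DDP minus A549, horizontal axis) of each expressed gene in 7 lists (rows), with the lowest and highest gene of each named, a black bar at the median and dashed lines at 3-fold; genes with 1 value under the floor are at their bound. BCL2A1 at 2.77 lies alone beyond 3-fold, and the NF-kB list has the lowest median, at -0.54.

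Each member was also set beside the 5 nearest expressed genes on each side of it in the RefSeq gene order. Around BCL2A1 on chromosome 15, from MORF4L1 to CEMIP, the median difference was -0.02, with 5 genes higher and 5 lower. Of these neighbours 0 were past 3-fold, beside 2.14% of all expressed genes higher and 2.18% lower. The highest neighbour of BCL2A1 was ST20-AS1 at 1.11, well below its own 2.77. Around BOK on chromosome 2 the median was 0.23 and 7 of 10 neighbours were higher, with DTYMK, which makes dTDP for DNA synthesis, at 1.65. Around BIK on chromosome 22 the median was 0.27 with 7 of 10 higher, opposite to BIK at -0.90 or below.

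The neighbour medians of all 10 members lay between -0.11 and 0.27. The highest neighbours of BCL2L1, BAK1 and BCL2L11 were TPX2 (3.0), KIFC1 (2.54) and BUB1 (2.20), all genes of mitosis, while the members beside them were at -0.26, 0.15 and 0.34. No member therefore lay in a stretch of 10 genes that differed as a block by more than 0.27 at the median. Copy number was not analysed here.

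**Figure D4:**
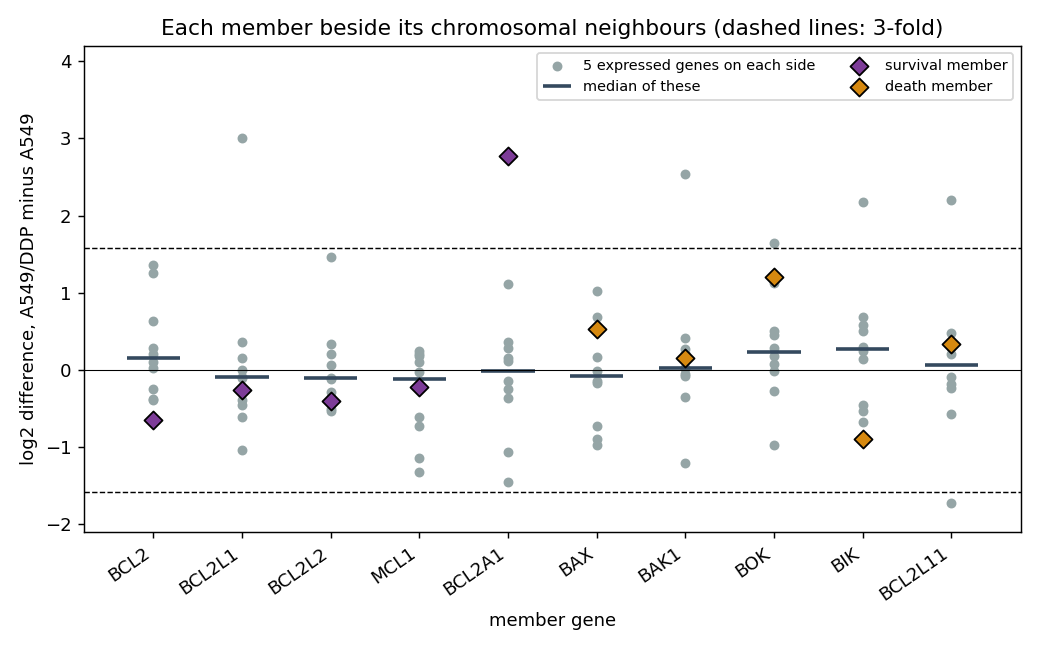
Log2 difference (A549/DDP minus A549, vertical axis) of each member (diamond, purple for survival and orange for death) and of the 5 expressed genes on each side of it along the chromosome (grey points, with their median as a bar); dashed lines mark 3-fold, and BIK is at its bound. BCL2A1 at 2.77 lies above all 10 of its neighbours, whose median is -0.02.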

How the data were processed

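One Affymetrix HG-U133 Plus 2.0 array was run for A549/DDP and another for A549, with groups taken from sample titles. The table deposited by the authors holds log2 signals of 54675 probe sets. MAS5 and affy appear, without versions, in the submitters' processing notes, and the methods of the study name SCAN with UPC. The trimmed mean of the linear signal, with 2% left out at each end, was 500.1 on both arrays, a property of scaled MAS5 signals, and the values were used as deposited. MAS5 values scatter most at low brightness.

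Genes were named from the platform annotation where a probe set lists 1 gene (41097 probe sets, of which 41037 other than controls matched RefSeq, GRCh38.p14, by gene ID). Each gene was represented by the brightest of its probe sets on average. Values under the array median, taken over probe sets other than the 62 controls, were raised to it. The fold threshold was 3, as in the study. With 1 array per line no test was run, and the number of arrays limits the precision. The only error estimate is the SD between probe sets of 1 gene, which is not biological variation.

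A further table of A549-LV5 and A549-ZNF300 cells, with fold ratios, was not used, nor were the 4 per-sample columns that it holds. Planned protein sequence comparisons were not run. All members and their probe sets are named, and from each gene list those past 3-fold or otherwise up to 3 with the largest difference, with a few others chosen after their values were seen. The members and lists were chosen with earlier results of these data known. Steps were tested on simulated data, with folds planted only in bright genes and with less scatter than between the real arrays. Most members, BCL2A1 included, are dimmer than those genes, so recovery of folds at their brightness was not tested. Alternatives were 3 other scalings, 3 other floors, 3 other choices of probe set and thresholds of 2-fold and 5-fold. Python 3.11.15, pandas 2.3.3, numpy 2.4.6, statsmodels 0.14.6 and matplotlib 3.10.9 were used.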

Additional observations from a re-analysis of the deposited data

How the results depend on the processing

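BCL2A1 was past 3-fold under all 9 alternatives of scaling, floor and probe set, from 2.67 to 2.80 on the log2 scale. It has 1 probe set, so the choice of probe set could not bear on it. Both its values lay over the main floor, so neither a lower floor nor the absence of one could change it. Only the other scalings and the higher floor could. At a threshold of 2-fold, 2 members were higher. With no floor, and with the floor at the 25th percentile, 1 member was at least 3-fold lower, which was BIK at -2.12 in each case. The median of the survival members was 0.14 with the dimmest probe set over the floor and below 0 under the other 8 alternatives. It was only -0.03 with the median over all probe sets. The median of the death members was above 0 under all 9, and was 0.14 with the median over all probe sets. A lower floor, or none, could not move either median. The genes in the middle, BCL2L1 and BCL2L11, were over the main floor on both arrays. Under the 3 other scalings the survival median ran from -0.27 to -0.23 and the death median from 0.34 to 0.38. Only 6 of these 9 medians of the death members hold all 5: the floor at the 75th percentile left 3 (without BAK1 and BIK), leaving out _x_at and _s_at probe sets left 3 (without BAX and BOK), and the median over probe sets left 4 (without BOK). BCL2 was missing from the survival members at the 75th percentile floor and with the median over probe sets. BCL2L11 went to -1.08, BCL2L2 to 0.31 and BCL2L1 to 0.14 with the dimmest probe set over the floor, and BCL2L2 to 0.03 with the median over probe sets; these take other probe sets of the same gene. Among all genes expressed, 281 lay past 3-fold upward and 287 downward, against 1720 and 1935 with no floor, 673 and 860 with the floor at the 25th percentile, and 127 and 122 with it at the 75th. At 2-fold the counts were 807 and 974, and at 5-fold 79 and 74. Scalings moved the median of all genes by at most 0.04. Of 190 values recomputed, 169 moved by less than the spread between probe sets or, for counts, by no more than 1.5 times. Signs did change under some settings. This was so, among others, for the survival median, BCL2L1, BCL2L2, BCL2L11 and the median of the NF-kB list. No paired analysis was possible because each line has 1 array. Signal over background limits BIK, BCL2 and the second probe set of BOK.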
